A study of Homo sapiens with 4 samples.

Results

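The genes described here are feedback and output genes of the ERK pathway, followed in cells labelled NB4 after knockdown of CEBPG, a leucine-zipper transcription factor. They are PHLDA1, TMEM158, DUSP4, DUSP5, DUSP6, SPRY2, SPRY4, SPRED1, SPRED2 and ETV5. The 10 genes were chosen by name with the difference between knockdown and control libraries in view, PHLDA1 and TMEM158 for the size of that difference. Their differences are therefore given as a description, without a test. Of the 10, 9 were found among 16504 gene symbols in the deposited table, 8 reached a mean of 1 FPKM (fragments per kilobase of exon model, relative to all mapped reads) over all libraries, and DUSP4 was not analysed here.

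RNA-seq was performed on 4 libraries labelled NB4, the name of a human acute promyelocytic leukemia cell line. Marker genes, given below, went against that label in all 4 libraries. Per the labels, CEBPG was present in 2 libraries (control 1 and 2) and knocked down in 2 (knockdown 1 and 2). In the study, short hairpin RNAs were delivered by a puromycin-selectable lentivirus and stable cells were compared with shRNA control cells. The labels mark the knockdown with the number 3, which was read as 1 of the hairpins against CEBPG. That reading is an assumption, and other effects of a single hairpin cannot be told apart from the loss of CEBPG. Nothing in the labels says that the libraries of a group came from separate cultures, so p-values measure the spread between these libraries.

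The ERK pathway carries signals from growth factor receptors through Ras, Raf and MEK to the ERK kinases. Active ERK induces genes whose products damp the pathway in turn. Phosphatases of the DUSP family dephosphorylate ERK itself, while Sprouty (SPRY) and Spred (SPRED) proteins act further up, at the level of Ras and Raf. Because they follow ERK activity, transcripts of such genes are often read as an output of the pathway in leukemia and other cancers with activated receptors or Ras. They report RNA levels here, and phosphorylated ERK was not measured in these libraries.

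In the libraries, CEBPG itself was at 17.1 and 18.1 FPKM in control and at 6.91 and 7.96 FPKM in knockdown, which leaves 42.2% of the control level. FPKM summed to between 346170 and 367105 per library. Read depth was unknown, so no counting interval is given. Of 18 erythroid marker genes, 16 were at 10 FPKM or more in every library, with a summed level of 8210 to 8690 FPKM in control and 9075 to 9656 FPKM in knockdown. Of 19 promyelocyte and myeloid markers, 12 were in the table, 8 of these stayed under 1 FPKM in every library, and the sum of the 12 was 43.0 to 43.9 FPKM in control and 45.3 to 45.9 FPKM in knockdown. The granule protein genes AZU1 and PRTN3 were at no more than 0.570 and 0.188 FPKM. Of the 12 myeloid markers, 2 were at 10 FPKM or more in every library, LYZ at 15 to 20.1 FPKM and SPI1 at 15.2 to 17.2 FPKM, and CD33 was over 1 FPKM in every library. CST7 was listed at 0 in control 2, and no other marker of either list was at 0 in any library. MPO, ELANE and CTSG were not analysed here. These levels go against the label NB4, since erythroid genes were abundant and AZU1 and PRTN3 nearly absent in control and knockdown alike. The identity of the cells is therefore not taken as given, the libraries are called control and knockdown only, and the part of these markers in the results was not tested. In bulk RNA, a change in the share of a cell type and a change of RNA per cell cannot be told apart.

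PHLDA1 and TMEM158 stood furthest from control, and the bases in front of them are shown for that reason. PHLDA1 lies on chromosome 12, positions 76025447 to 76031776, and TMEM158 on chromosome 3, positions 45224466 to 45226287, both on the minus strand (RefSeq, GRCh38.p14). Each sequence holds the 250 bases upstream of the annotated start, 5′ to 3′ on the strand of the gene, from the RefSeq promoter table on GRCh38.p14 (chr12:76031777-76032026 and chr3:45226288-45226537). Capitals mark GC boxes (GGGCGG or its reverse complement CCGCCC), a common promoter element.

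PHLDA1: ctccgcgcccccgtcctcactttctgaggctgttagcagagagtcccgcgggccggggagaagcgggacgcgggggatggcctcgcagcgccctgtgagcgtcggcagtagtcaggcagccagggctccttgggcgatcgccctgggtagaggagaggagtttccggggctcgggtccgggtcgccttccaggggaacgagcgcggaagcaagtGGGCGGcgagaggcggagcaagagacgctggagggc

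TMEM158: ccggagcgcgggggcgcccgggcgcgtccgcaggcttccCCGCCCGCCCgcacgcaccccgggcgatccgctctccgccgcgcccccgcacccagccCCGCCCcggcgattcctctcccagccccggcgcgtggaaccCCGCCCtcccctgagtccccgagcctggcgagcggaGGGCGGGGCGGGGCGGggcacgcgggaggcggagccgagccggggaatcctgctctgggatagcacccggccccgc

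Both windows were rich in G and C, at 70.4% for PHLDA1 and 82.4% for TMEM158, against a median of 65.2% over the promoters of tested genes. Promoter entries were found for 7 of the 10 genes, namely PHLDA1, TMEM158, DUSP6, SPRY2, SPRY4, SPRED1 and SPRED2. A GC box was present in 5 of the 7 windows, against 68.9% of 8474 promoters of tested genes. This motif was added after the windows had been read. Matches to the other motifs were looked for on both strands. They were the CEBP-ATF element TGATGCAAT, the AP-1 site TGACTCA, the cyclic AMP response element TGACGTCA, the ETS site CCGGAAGT, the serum response element and the CEBP element TTGCNNAA. None of the 7 windows held any of these 6 motifs, which were in 0.08%, 2.37%, 3.26%, 8.4%, 1.01% and 5.72% of promoters of tested genes in the same order. Some of the motifs share letters with each other and can overlap. A window without a match says only that these letters were not in these 250 bases.

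PHLDA1 encodes a pleckstrin homology-like domain protein and is widely used as a transcript that follows ERK activity. Its level was 3.19 and 3.35 FPKM in control and 13.7 and 12.8 FPKM in knockdown. Both knockdown libraries lay above both control libraries, and the gap was far larger than the distance between replicates. The means were 3.27 ± 0.110 FPKM and 13.3 ± 0.643 FPKM (SD, n = 2), a ratio of 4.06. On the log2(FPKM + 1) scale, which understates changes of low genes, the difference was 1.74 with a standard error of 0.075 (limma), and 99.95% of the 10968 tested genes had a lower one. The gene was listed as 1 transcript, NM_007350. An antisense gene, PHLDA1-AS1, lies inside PHLDA1 at positions 76030494 to 76031378, and the counting was not stated to use strand, so reads from this stretch cannot be assigned to either gene with certainty.

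TMEM158, a membrane protein gene first described as induced by oncogenic Ras in senescence, was the most abundant of the 9 genes in both groups. It stood at 24.2 and 21.1 FPKM in control and at 64.9 and 65.7 FPKM in knockdown. The groups did not overlap, and the knockdown libraries lay closer to each other than the control libraries did. The means were 22.65 ± 2.14 FPKM and 65.3 ± 0.571 FPKM (SD, n = 2), a ratio of 2.88. The difference on the log2(FPKM + 1) scale was 1.49 with a standard error of 0.075, and 99.9% of tested genes had a lower one.

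**Figure D1:**
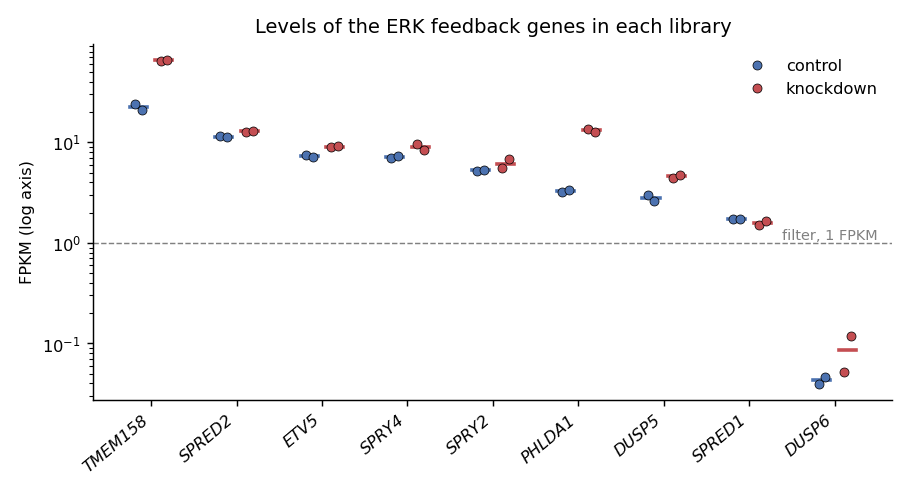
FPKM (log axis) of the 9 feedback genes in the 2 control (blue) and 2 knockdown (red) libraries, where points are libraries and short lines are group means. TMEM158 and PHLDA1 show the widest gaps between groups, from 22.65 to 65.3 and from 3.27 to 13.3 FPKM, while SPRED1 is lower in knockdown and DUSP6 lies far under the filter at 1 FPKM.

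Of the phosphatases, DUSP5 acts on ERK in the nucleus. It was at 3.03 and 2.63 FPKM in control and at 4.46 and 4.76 FPKM in knockdown. The groups did not overlap, with a ratio of means of 1.63 and a log2 difference of 0.55 (SE 0.093). Without any one library, that difference ranged from 0.48 to 0.63. DUSP6, the ERK phosphatase of the cytoplasm and a classical feedback gene, was hardly detected. Its values were 0.0398 and 0.0468 FPKM in control and 0.0524 and 0.119 FPKM in knockdown. These levels lie below the filter, the knockdown libraries differ from each other by more than the groups do in their means, and no difference could be established. DUSP6 and DUSP5 thus differed widely in level: DUSP5 exceeded DUSP6 in all 4 libraries on the FPKM scale, which is per length.

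The Sprouty proteins are inhibitors of signalling from receptor tyrosine kinases to Ras and Raf. SPRY4 was at 6.94 and 7.29 FPKM in control and at 9.59 and 8.32 FPKM in knockdown. Both knockdown libraries lay higher, but they differed from each other by more than the nearer of them differed from control 2. The log2 difference of SPRY4 was 0.29 (SE 0.085). SPRY2 was at 5.22 and 5.32 FPKM in control and at 5.51 and 6.755 FPKM in knockdown. Here knockdown 2 decided the value: the log2 difference of SPRY2 was 0.18 (SE 0.10) with all libraries, 0.054 without knockdown 2 and 0.31 without knockdown 1.

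The Spred proteins bring neurofibromin, which switches Ras off, to the membrane. SPRED2 was at 11.4 and 11.25 FPKM in control and at 12.6 and 13.04 FPKM in knockdown, a log2 difference of 0.16 (SE 0.064). SPRED1 was at 1.71 and 1.74 FPKM in control and at 1.51 and 1.66 FPKM in knockdown. It was the only one of the 8 genes over the filter with a lower level in knockdown, by -0.078 on the log2 scale (SE 0.104). That value was -0.118 without knockdown 2 and -0.038 without knockdown 1.

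ETV5, a transcription factor of the PEA3 group of ETS proteins that is induced by receptor and ERK signalling, was at 7.50 and 7.07 FPKM in control and at 8.905 and 9.14 FPKM in knockdown. The groups did not overlap. The ratio of means was 1.24 and the log2 difference 0.28 (SE 0.070), with a range of 0.24 to 0.31 when any one library was left out.

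**Figure D2:**
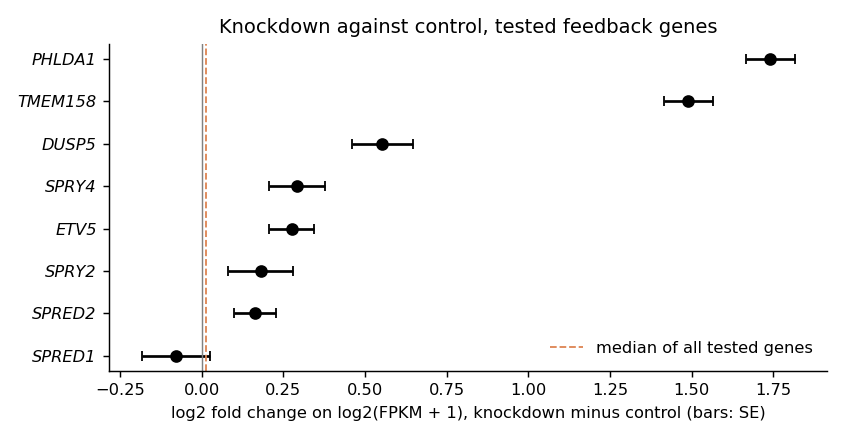
Difference on the log2(FPKM + 1) scale, knockdown minus control, for the 8 feedback genes over the filter, with bars of 1 standard error and a dashed line at the median of all tested genes (0.015). PHLDA1 and TMEM158 lie at 1.74 and 1.49, DUSP5 at 0.55, and the other 5 between -0.078 and 0.29.

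Read together, 7 of these 8 genes lay higher in both knockdown libraries than in both control libraries, a pattern seen in 34.3% of the 10968 tested genes. SPRED1 lay lower in both, as did 30.5% of tested genes. Since the genes were chosen on this contrast, nothing is read from these counts. The median log2 difference of the 8 was 0.28, against 0.015 over all tested genes.

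The order of the 9 genes by level differed between groups mainly through PHLDA1. In control, the FPKM means ran from TMEM158 through SPRED2, ETV5, SPRY4, SPRY2, PHLDA1, DUSP5 and SPRED1 to DUSP6. ETV5 and SPRY4 overlapped there, and no other neighbours did. In knockdown, PHLDA1 moved from rank 6 to rank 2, and the other 8 genes kept their order among themselves. PHLDA1 and SPRED2 overlapped in knockdown, as did ETV5 and SPRY4. Against all tested genes, control levels ranged widely: TMEM158 was above 73.5% of tested genes, SPRED2 above 54.7%, PHLDA1 above 21.1%, DUSP5 above 18.1% and SPRED1 above 9.0%, while DUSP6 lay under the filter.

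For SPRY4 and SPRED2, the only 2 of the 9 genes with more than 1 transcript listed, the total hides unequal parts. The main SPRED2 transcript, NM_181784, was at 11.4 and 11.25 FPKM in control and at 11.8 and 11.6 FPKM in knockdown, a log2 difference of 0.041 (SE 0.069). The other, NM_001128210, was at 0 throughout control and reached 0.824 and 1.45 FPKM in the knockdown libraries, so most of the difference in the SPRED2 total came from it. An exact 0 can be a failed estimate, and no fold is given. The main SPRY4 transcript, NM_001127496, was at 6.71 and 7.18 FPKM in control and at 9.04 and 6.98 FPKM in knockdown. These groups overlapped, in contrast to the SPRY4 total. The transcript NM_030964 was at 0.182 FPKM in control 1, listed at 0 in control 2, and at 0.383 and 1.07 FPKM in knockdown. In knockdown 2 it made up 12.8% of SPRY4, against 4.0% in knockdown 1.

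**Figure D3:**
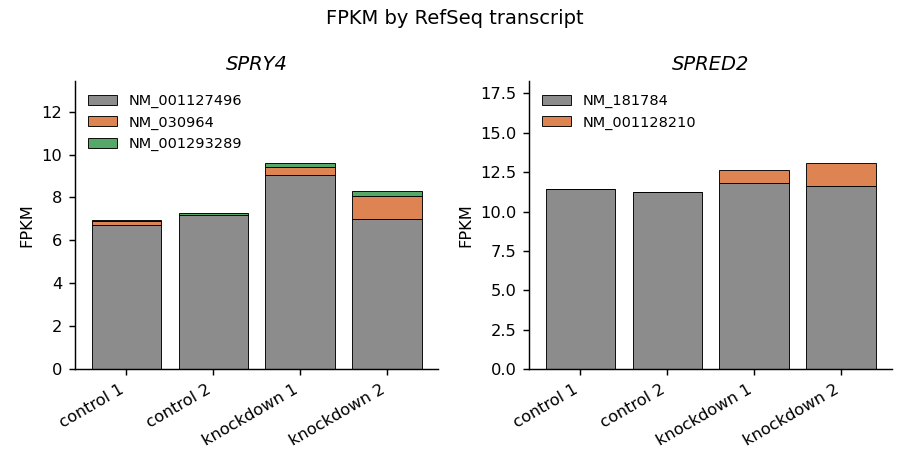
FPKM of each RefSeq transcript of SPRY4 and SPRED2, stacked to the gene total in each of the 4 libraries. For SPRED2 the grey transcript NM_181784 stays between 11.25 and 11.8 FPKM and the orange one is drawn in knockdown alone, and for SPRY4 the main transcript is at 6.98 FPKM in knockdown 2.

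To address how the rest of the pathway stood, 6 lists of its genes other than the feedback genes were read from the same fit. Together they held 112 genes, of which 76 were tested. Of the 76, 26 rose and 7 fell (limma, adjusted p under 0.05), and 43 did not pass, while 10.9% of all tested genes were called higher and 9.99% lower. The lists were chosen with earlier results of these data known, so these counts are a description and nothing is read from their distance to the shares of all genes. KIT and ERBB3 passed the filter only through their knockdown libraries, and without these 2 genes 25 rose and 7 fell among 74. Without knockdown 1 the numbers were 9 and 4, without knockdown 2 they were 10 and 4, and without control 2 they were 16 and 7. With no filter on low values 9 rose and 5 fell. Of the 33 calls, 12 were kept whichever library was left out, among them EGR1, FOSL1, IER3, KLF10, PLAUR, VGF, PDGFB, FGFR3, RASGRP2, SOS1 and RPS6KA4. The other 21 were lost without at least 1 of the knockdown libraries. The median log2 difference of the 76 genes was 0.15, against 0.015 over all tested genes.

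Genes that ERK signalling is known to induce formed 1 of the 6 lists. Of its 24 genes, 17 were tested, 11 rose, 2 fell and 4 did not pass, with a median of 0.32. Of all tested genes, 10.9% were called higher and 9.99% lower. The list was chosen with earlier results of these data known, so nothing is read from these counts. The count of 11 was 6 without knockdown 1, 7 without knockdown 2 and 6 with no filter, and without either knockdown library none of the 17 was called lower. FOSL1, a component of the transcription factor AP-1, went from 13.8 and 13.15 FPKM to 24.0 and 26.7 FPKM, a log2 difference of 0.86 (SE 0.074, limma adjusted p = 0.00126). EGR1, an immediate early zinc finger factor, went from 11.1 and 11.45 FPKM to 17.5 and 17.6 FPKM (0.60, adjusted p = 0.00215). VGF, a secreted neuropeptide precursor, rose by 0.75 (adjusted p = 0.00222). IER3, an early response gene, rose by 0.74 (0.00609). PLAUR, the urokinase receptor, rose by 0.64 (0.00446) and KLF10 by 0.60 (0.00541). JUNB, ZFP36, ZFP36L1 and SLC20A1 rose by between 0.27 and 0.42. Against them, MYC fell by 0.31 (adjusted p = 0.0209) and CCND1, cyclin D1, fell by 0.32 (0.0122). CCND1 was at 31.7 and 32.7 FPKM in control and at 25.3 and 25.8 FPKM in knockdown, on the other side from FOSL1 and EGR1. MYC and CCND1 both promote the cell cycle.

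Of the relatives of the feedback genes, 8 of 14 were tested, 2 rose and none of the 8 fell, against 10.9% and 9.99% of all tested genes. Nothing is read from counts this small. Without knockdown 1 neither was called, and without knockdown 2 or control 2 only 1 was. PHLDA2, of the same family as PHLDA1, went from 9.60 and 8.08 FPKM to 13.55 and 12.6 FPKM, a log2 difference of 0.52 (limma adjusted p = 0.0115). ETV4, a PEA3 factor like ETV5, rose by 0.31 (0.03065). The phosphatase DUSP1 was at 6.14 and 5.95 FPKM in control and at 5.12 and 6.20 FPKM in knockdown, with overlapping groups. Among the core proteins from Ras to ERK, 13 of 15 genes were tested, and 2 passed, both higher, against 10.9% of all tested genes. Neither call was kept without control 2, without knockdown 1, without knockdown 2 or with no filter, and no result about the list is read from the count. The scaffold gene KSR1 rose by 0.23 (0.0484), a call that was lost whichever of the 4 libraries was left out. None of the 7 tested Raf, MEK and ERK kinase genes passed.

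Of 24 receptors and ligands, 11 were tested, 4 rose and 3 fell, against 10.9% and 9.99% of all tested genes. No result about the list is read from counts this small. Without knockdown 1, and likewise without knockdown 2, the counts were 1 and 2, and PDGFB was the 1 called higher. PDGFB, a ligand of the PDGF receptors, went from 2.38 and 2.17 FPKM to 8.11 and 7.89 FPKM (1.46, adjusted p = 0.000481), and PDGFA rose by 0.42 (0.0294). KIT, the stem cell factor receptor, was at 0.920 and 1.07 FPKM in control and at 1.76 and 1.81 FPKM in knockdown (0.48, 0.0265). The control mean of KIT was 0.996 FPKM, below the filter. Without KIT and ERBB3, 3 rose and 3 fell among 9 receptor and ligand genes. AREG, an EGF receptor ligand, rose by 0.44 (0.0422). FGFR3 fell by 0.70 (0.00146) and FGFR4 by 0.49 (0.0146).

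Among genes that switch Ras on or off, 14 of 20 were tested, 2 rose and 2 fell, with a median log2 difference of 0.00. These counts lie near the shares of all tested genes (10.9% higher and 9.99% lower), and no result about the list is read from them. RASGRP2, an exchange factor of small GTPases, went from 5.20 and 4.45 FPKM to 2.32 and 2.26 FPKM (-0.82, limma adjusted p = 0.00333). SOS1, the exchange factor that couples receptors to Ras, fell by 0.58 (0.00389). The adaptor genes GAB2 and SHC1 rose by 0.38 and 0.31 (0.0128 and 0.0472). With no filter on low values neither passed (limma adjusted p = 0.0514 and 0.132). Without any one library, the difference ranged from 0.32 to 0.44 for GAB2 and from 0.21 to 0.41 for SHC1. Of the substrates of ERK, 13 of 15 were tested, 5 rose and none of the 13 fell. The shares of all tested genes were again 10.9% and 9.99%, and nothing is read from these counts either. Without knockdown 1, and likewise without knockdown 2, only RPS6KA4 of the 5 was called. RPS6KA4, a kinase of the MSK group that acts on chromatin and CREB, went from 10.5 and 8.11 FPKM to 19.1 and 17.9 FPKM (0.93, adjusted p = 0.00336). RPS6KA5 of the same group rose by 0.42, MKNK2 by 0.39, the ETS factor ELK1 by 0.36 and the ETS repressor ERF by 0.29.

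**Figure D4:**
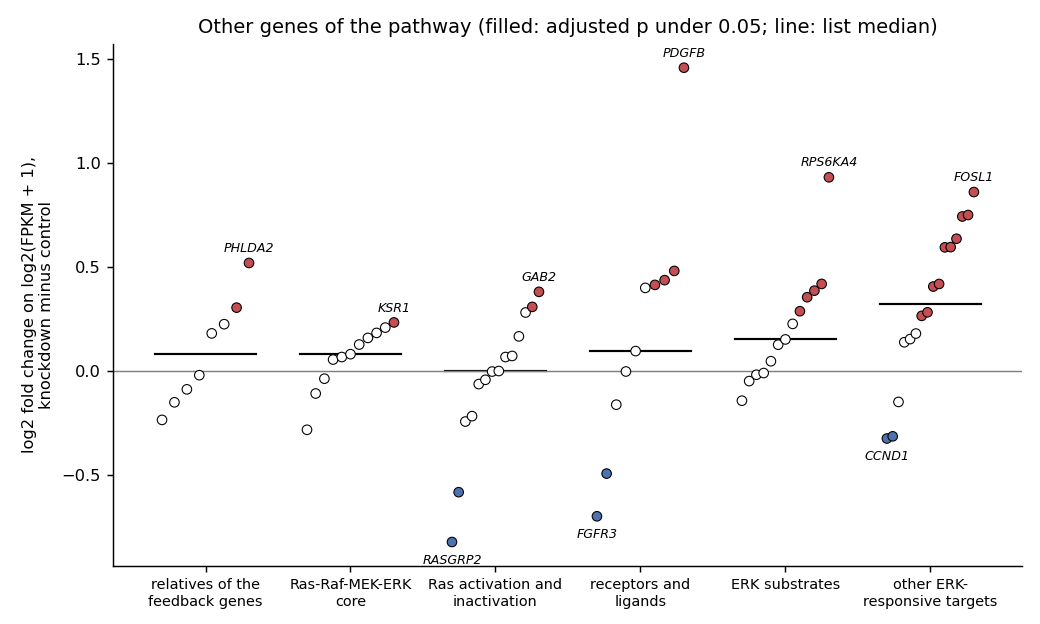
Difference on the log2(FPKM + 1) scale, knockdown minus control, for genes of the 6 pathway lists, sorted within each list, with filled points for genes past an adjusted p of 0.05 and a line at the median of all tested genes of the list. A few tested genes are not drawn. The list of other ERK-responsive targets has its median at 0.32 with CCND1 and MYC below 0, and receptors and ligands lie on both sides of 0, with PDGFB at 1.46.

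The profiles nearest to PHLDA1 and TMEM158 were sought among 7609 genes whose mean reached 5 FPKM. Likeness was the Euclidean distance between log2(FPKM + 1) values centred on the mean of each gene over the 4 libraries. Over 4 libraries in 2 groups, such a distance mostly ranks genes by the size of the difference between groups. The nearest to TMEM158 was PDGFB, at a distance of 0.083, followed by PHLDA1 (0.312), INAFM1 (0.321), CD68 (0.321) and CCDC74A (0.325). The median distance from TMEM158 was 1.49. The nearest to PHLDA1 were GAGE4 (0.298), PDGFB (0.302), TMEM158 (0.312), GAGE6 (0.523) and CD68 (0.576), with a median distance of 1.74. GAGE genes are near-identical copies whose values are uncertain. PDGFB, GAGE4, GAGE6 and PHLDA1 had control means under 5 FPKM and reached the minimum only through their knockdown libraries, so nothing is read from their nearness.

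**Figure D5:**
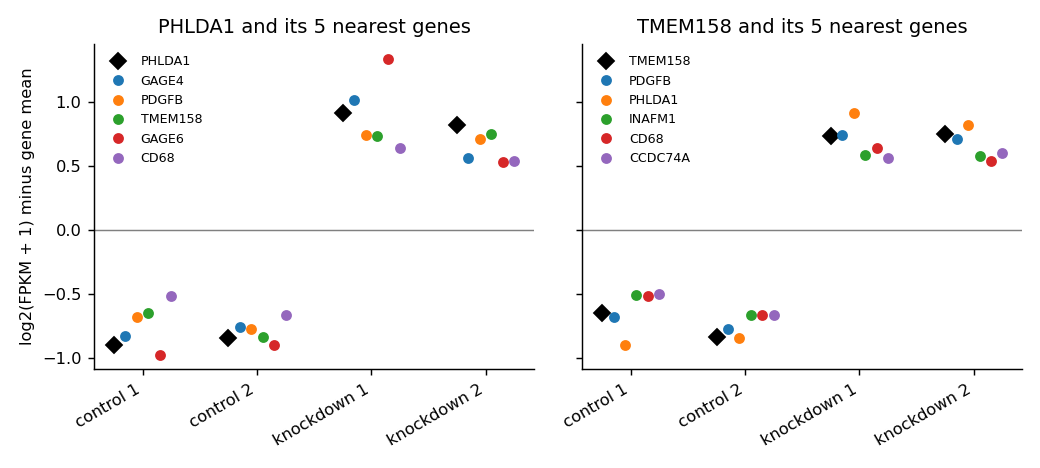
Value of log2(FPKM + 1) minus the mean of the gene, in each library, for PHLDA1 and TMEM158 (black diamonds) and the 5 nearest genes of each (coloured points). The genes shown lie below 0 in both control libraries and above 0 in both knockdown libraries, and GAGE6 and GAGE4 separate most between the knockdown libraries.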

How the data were processed

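The authors deposited FPKM values for 29265 RefSeq transcripts in 4 libraries. Sequencing libraries came from a TruSeq kit per the labels, and the submitters' processing notes name HISAT2 2.0.5 and hg38. The quantifier was not given in the sources used here. Entries without a value (183) or a symbol (164) were left out, and transcripts were summed per symbol. The values of genes with several transcripts rest on how their reads were shared out. Among 1094 low genes, the most common ratio between the control libraries made up 0.55%, so whole reads were not recovered and depth was unknown. Genes whose mean reached 1 FPKM were tested on log2(FPKM + 1) with limma 3.58.1 under R 4.3.3 (mean trend, 2-sided, Benjamini-Hochberg). The test of the study needs read counts. Scripts were tested on simulated data. The members and lists were chosen with earlier results of these data known. The members entered the fit with all genes, but only their values, differences and standard errors are reported. Named were all members, CEBPG, list genes with an adjusted p under 0.05 and the 5 nearest profiles. DUSP1 and the marker genes were named after their values were seen. Some genes that the rule would name are not reported here.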

Additional observations from a re-analysis of the deposited data

How the results depend on the processing

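The number of tested genes with an adjusted p under 0.05 (limma) was 2288 and ranged from 825 to 1925 when each library was left out in turn, where the lone library of a group was assumed to vary like the others. It was 882 with no filter on low values (16504 genes tested) and 3440 with the replicate number as a block. The labels name nothing that the replicate numbers share, and the correlation between deviations of libraries with the same number was 0.101. The block moved no count of pathway genes by over 1.5 times (39 called).

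Of the pathway genes, 33 were called, 13 to 30 when a library was left out and 14 with no filter. Those called higher, 26, were 9 to 23 without a library and 9 with no filter. Those called lower, 7, were 4 to 7 without a library. Other ERK-responsive targets called higher, 11, were 6 to 11 without a library and 6 with no filter. The median log2 difference of the feedback genes ranged from 0.26 to 0.32 over all alternatives. Of 8 feedback genes and 33 called pathway genes, none of 418 alternative values changed direction. For most of these values that was fixed in advance. The groups of all these genes did not overlap, so leaving out a library could not turn a difference round. Dropping the filter or the mean trend, or adding the block, left the difference itself unchanged. Nothing is therefore read from this count. Depth was unknown, so the precision of low genes such as DUSP6 could not be given.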

Other observations

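Some exchange factors of Ras lay under the filter of the tests. RASGRP4 was at 0.899 and 1.15 FPKM in control and at 0.427 and 0.470 FPKM in knockdown. RASGRP3 was at 0.277 and 0.270 FPKM in control and at 0.616 and 0.544 FPKM in knockdown. The groups did not overlap for either gene, and the difference was not tested. The ligand LIF, another gene induced by ERK signalling, was at 0.136 and 0.0808 FPKM in control and at 0.308 and 0.363 FPKM in knockdown. EGR3, of the same list, lay the other way, at 0.115 and 0.1055 FPKM in control and at 0.0397 and 0.0483 FPKM in knockdown. The groups did not overlap for LIF or EGR3, and neither difference was tested. FOS was at 1.19 and 0.689 FPKM in control and at 1.07 and 0.862 FPKM in knockdown, with overlapping groups. These genes were chosen after their values were seen.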
